A study of Mus musculus with 12 samples.

Results

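Ion channel transcripts were followed in ribosome pull-downs from the muscle layer of the mouse small intestine. The 81 channel genes were taken by name alone from the 12975 genes of the count table (0.624%), as all genes with symbols that begin with Kcn or Cacn, the Scn genes that end in a number and a or b, and the Hcn genes. They held 51 genes of pore-forming subunits and 30 of auxiliary or modifying subunits. By function the set is wider than voltage-gated channels: the 7 inward rectifiers (Kcnj) and 8 tandem-pore leak channels (Kcnk) carry no voltage sensor and the SK channels (Kcnn) open with calcium, so the genes are called channel genes here.

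All 12 libraries came from 6 mice of the strain PLPCreERT2 Rpl22HA, with the tagged Rpl22 allele of line B6J.129(Cg)-Rpl22tm1.1Psam/SjJ. In these mice tamoxifen lets Cre, driven by a promoter active in glia, add an HA tag to the ribosomal protein Rpl22, so that ribosomes of recombined cells can be precipitated. Every mouse, controls included, had received tamoxifen, 2 injections of 100 µl at 15 mg/ml from an age of 10 to 12 weeks, and was killed 3 to 4 weeks after the first. The T0 group was naive (animals 1, 2 and 4) and the T3 group was taken 3 h after intestinal manipulation, a surgical rubbing of the exteriorised small bowel under anaesthesia (animals 1, 3 and 4). The naive mice had no sham operation, so manipulation, anaesthesia and surgery cannot be told apart. Homogenate of each animal was divided between anti-HA antibody (HA) and mouse IgG1 (IgG), which gave 4 groups of 3 libraries, HA T0, IgG T0, HA T3 and IgG T3. Tagging depends on which cells use that promoter, and the IgG libraries hold RNA that bound without the tag.

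Voltage-gated channels are built around a pore that opens when the membrane potential changes. Potassium channels bring the membrane back to rest, sodium channels start fast action potentials, and calcium channels turn a voltage change into contraction or secretion. Enteric glia surround the neurons of the gut wall and, like other glia, take up potassium through inward rectifiers such as Kir4.1 (Kcnj10). Smooth muscle relies on L-type calcium channels and on BK potassium channels, and interstitial cells of Cajal pace the muscle.

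HA T0 libraries held 1789710 to 2870591 UMI counts, HA T3 1221788 to 1495439, IgG T0 388214 to 1289833 and IgG T3 88136 to 248522. A count of 0 allowed up to 1.05 to 1.68, 2.01 to 2.46, 2.33 to 7.73 and 12.1 to 34.0 CPM (counts as a share of all counts of a library, scaled up) in these groups, for counting error only. Antibody and time point thus both moved with depth, and IgG T3 was the least precise group. Rpl22 itself ranged from 77.9 to 93.7 CPM in HA T0, 15.4 to 30.2 in IgG T0, 61.5 to 72.0 in HA T3 and 10.9 to 34.0 in IgG T3, higher in HA without overlap. In HA against IgG, 13 of 13 glial markers tested were higher at T0 (median log2 fold change 4.23) and 9 of 12 at T3, 3 of 4 and 3 of 3 markers of interstitial cells of Cajal were higher, and smooth muscle markers were lower in 13 of 13 and 10 of 12. The pull-down thus held markers of glia and of interstitial cells of Cajal above IgG.

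Some libraries stood apart for single genes or markers. The IgG T0 library of animal 1 held Cacna2d1, Kcnc2 and Scn9a at 260.2, 74.7 and 48.9 CPM, against at most 79.4, 21.7 and 9.30 in any other library, and its summed neuronal markers were at 5154 CPM against 2662 and 4497 in the other IgG T0 libraries. The IgG T3 libraries of animals 1 and 3 held 1191 and 945 CPM of summed glial markers, against 258 in animal 4, 206 to 283 in IgG T0 and 4125 to 5628 in HA. Results that rest on these libraries are given with and without them.

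Promoters are shown for 4 genes on which the results turn: Kcnip3, which was higher after manipulation in the pull-down, Kcna2 and Kcnk1, which were lower, and Kcnj10, with the largest fold difference between HA and IgG among the channel genes tested at T0. They are RefSeq promoters of the build GRCm38.p6, 5′ to 3′ on the gene's strand, from 250 bases before to 50 bases from the start onward. Capitals mark matches to the motifs searched, on both strands, namely AP-1 (TGANTCA), CRE (TGACGTCA), a longer NF-kB consensus, STAT (TTCNNNGAA), SOX (ACAAAG), DRE (GTCAAGG) and CCAAT.
Kcnip3, chr2:127522045-127522344, minus strand: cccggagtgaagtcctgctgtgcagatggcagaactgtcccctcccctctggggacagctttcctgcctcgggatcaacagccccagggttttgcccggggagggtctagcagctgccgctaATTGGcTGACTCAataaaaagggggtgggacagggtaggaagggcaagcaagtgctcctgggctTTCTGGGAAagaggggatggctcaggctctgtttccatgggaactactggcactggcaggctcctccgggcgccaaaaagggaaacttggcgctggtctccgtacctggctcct
Kcna2, chr3:107101317-107101616, plus strand: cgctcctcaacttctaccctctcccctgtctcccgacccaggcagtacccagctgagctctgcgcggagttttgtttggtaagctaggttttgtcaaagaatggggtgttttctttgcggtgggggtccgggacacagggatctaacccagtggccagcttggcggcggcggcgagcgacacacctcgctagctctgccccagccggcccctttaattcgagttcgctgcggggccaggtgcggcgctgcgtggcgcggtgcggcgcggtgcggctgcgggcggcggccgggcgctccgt
Kcnk1, chr8:125994852-125995151, plus strand: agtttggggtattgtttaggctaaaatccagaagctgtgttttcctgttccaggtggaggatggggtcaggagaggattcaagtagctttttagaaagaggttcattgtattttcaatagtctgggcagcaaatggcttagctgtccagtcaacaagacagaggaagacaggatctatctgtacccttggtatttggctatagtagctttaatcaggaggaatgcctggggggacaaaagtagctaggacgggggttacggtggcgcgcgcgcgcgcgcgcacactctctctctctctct
Kcnj10, chr1:172340960-172341259, plus strand: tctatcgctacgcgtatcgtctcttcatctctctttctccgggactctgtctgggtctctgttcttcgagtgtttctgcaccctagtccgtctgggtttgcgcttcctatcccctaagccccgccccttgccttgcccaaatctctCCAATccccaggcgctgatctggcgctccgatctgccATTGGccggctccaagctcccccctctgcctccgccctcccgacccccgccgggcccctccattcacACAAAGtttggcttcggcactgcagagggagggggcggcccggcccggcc
In the Kcnip3 promoter shown a CCAAT box (position -128 from the start) stood beside an AP-1 match (-122), and a STAT match followed (-64). Kcnj10 held a SOX match at its start (0) and CCAAT boxes at -104 and -67. The windows of Kcna2 and Kcnk1 held none of these letters. These are matches of letters only. Of 32851 promoters of this length 7.81% held the AP-1 letters, 8.30% STAT, 18.7% SOX and 37.4% CCAAT, and of the 86 promoters found for 59 channel genes 4, 7, 16 and 26 did. Kcnip3 has 3 annotated starts and the counts do not show which was in use. Of its other windows 1 held none of these letters and 1 a SOX match (-112) and a CCAAT box (-33), so AP-1 and STAT letters stood in 1 of the 3.

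In naive tissue the HA pull-down held more RNA than IgG for some potassium channel genes of the Kv1, inward rectifier and tandem-pore leak families. It held less of the BK channel and of the calcium channel pores Cacna1a, Cacna1c and Cacna1g. Of 7 inward rectifiers 5 were tested and 3 called higher, and of 8 tandem-pore genes 3 were tested and 3 called higher. Of the 81 channel genes 56 passed the filter on low counts at T0, and 31 were called, against 30.3% of all genes tested (adjusted p under 0.05, edgeR quasi-likelihood test). Higher in HA were 19 (background 16.0%), among them Cacna1d, Cacna1h, Cacng5, Hcn2, Kcna1, Kcna2, Kcna6, Kcne1l, Kcnh2, Kcnip3, Kcnj10, Kcnj11, Kcnj12, Kcnk1, Kcnk3, Kcnk5, Kcnmb2 and Kcnmb4. Lower were 12 (background 14.4%), among them Cacna1a, Cacna1c, Cacna1g, Cacna2d3, Cacnb1, Cacnb2, Kcnf1, Kcnip2, Kcnma1 and Kcnmb1. Pore-forming genes were called higher 13 times and lower 6 times of 34 tested (median log2 fold change 0.71), and auxiliary or modifying genes 6 and 6 times of 22 (median -0.48). Of the genes called, 6 of the 19 and 1 of the 12 passed the filter only through the group in which they were higher. They were Cacna1d, Kcne1l, Kcnj10, Kcnk1, Kcnmb2 and Kcnmb4, higher in HA, and Cacna2d3, lower in HA. Their difference was partly fixed by the filter, so these calls are descriptions. Among the other genes called, Cacng5, Kcnip3 and Kcnj11 had 1 IgG library over the filter's cutoff and Kcna1 had 2, against 3 in HA. The filter leaned on HA for these too. The median of the channel genes tested was 0.07, beside -0.02 of all genes tested. The 3 HA and 3 IgG libraries did not overlap for 35 of the 56, against 44.8% of all genes tested. Without the IgG T0 library of animal 1 the count was 34 (22 higher and 12 lower). Glia, interstitial cells of Cajal and smooth muscle markers moved with these groups as given above, and their part in the channel values was not tested. Beside them, 11 of 17 neuronal markers were lower in HA at T0.

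**Figure D1:**
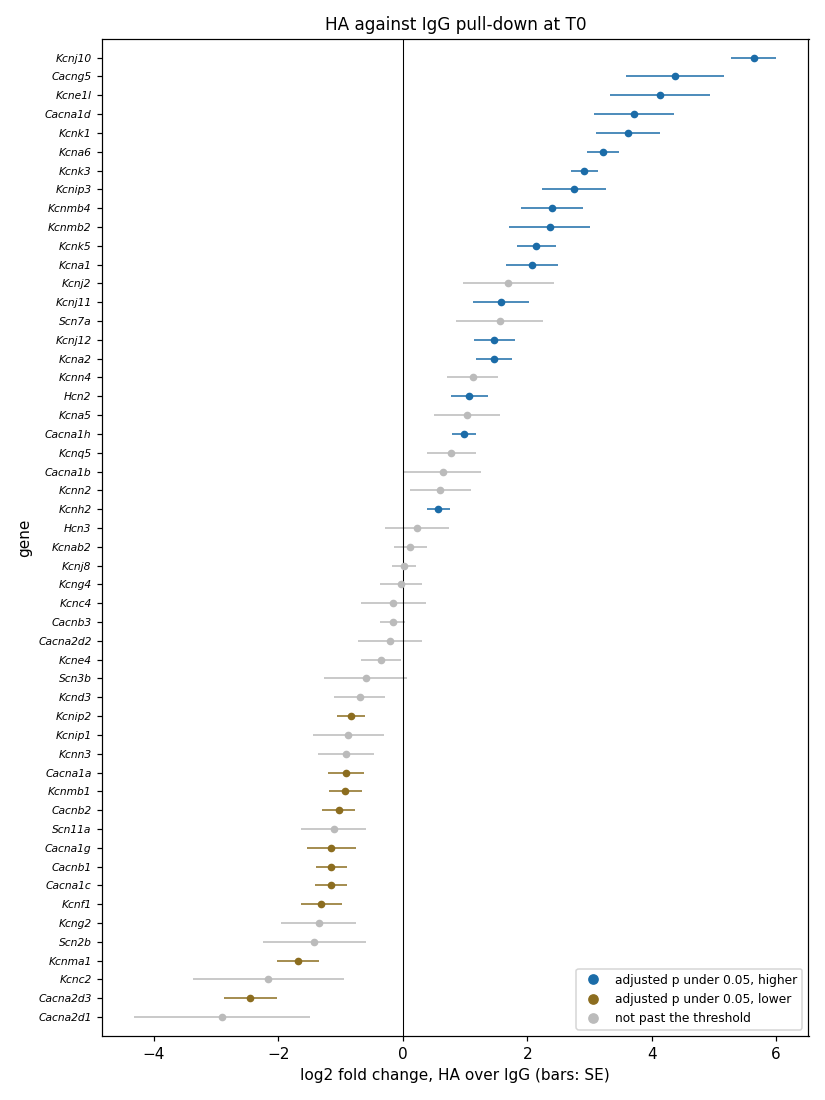
Log2 fold change of HA against IgG at T0 (horizontal axis) for 52 of the 56 channel genes tested, with bars for ± 1 SE, coloured by call. Kcnj10, at 5.64, lies farthest to the right, and 18 of the genes drawn were called higher and 10 lower in HA.

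At T3 the enriched side of the list was shorter. Of 35 channel genes tested 19 were called, against 21.9% of all genes, with 7 higher in HA (background 11.8%) and 12 lower (background 10.2%). Among the 7 higher were Kcna6, Kcnip3, Kcnj10, Kcnk3, Kcnk5 and Kcnmb4, and all 7 were among the 19 called higher at T0. Cacna1a, Cacna1c, Cacna2d1, Cacnb2, Hcn4, Kcne4, Kcnip2, Kcnj8, Kcnma1, Kcnmb1 and Scn11a were among the 12 lower, of which 7 were among the 12 lower at T0. Of these calls 1 of the 7 and 4 of the 12 were of genes that passed the filter only through the higher group. The 1 was Kcnmb4, and the 4 included Cacna2d1, Hcn4 and Scn11a. Among the other genes called, Kcnip3 and Kcnj10 had 1 IgG library over the filter's cutoff and Kcnk5 had 2, against 3 in HA. Kcnma1 and Kcnmb1 had 2 HA libraries over it, against 3 in IgG. The filter leaned on the higher group for these too. The median was -0.56, beside 0.02 of all genes tested. HA and IgG did not overlap for 21 of 35, with 7 higher and 14 lower in HA, against 35.8% of all genes. Of the 19 genes higher at T0 another 7 were tested at T3 without passing and 5 fell under the filter, which the low depth of IgG T3 sets. Without the HA or IgG library of any 1 animal the count at T3 lay between 10 and 17.

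Between T0 and T3 the channel transcripts of the pull-down moved both ways. Of 51 tested in HA 16 were called, a share close to the 33.8% of all genes tested, with 11 lower at T3 (background 15.1%) and 5 higher (background 18.7%). Kcna2, Kcna5, Kcnf1, Kcnip2, Kcnj8, Kcnk1, Kcnmb1, Kcnmb2, Kcnn2 and Kcnn4 were among those that fell, and Cacnb1, Kcna6, Kcne4 and Kcnip3 among those that rose. In bulk libraries fewer cells of a type and less RNA per cell cannot be told apart. The median of the channel genes tested was -0.08, beside -0.02 of all genes tested, and T0 and T3 did not overlap for 21 of 51 (3 higher and 18 lower), against 50.8% of all genes. With total counts as scaling, which moved the median of all genes to -0.29, 21 were called, 3 higher and 18 lower. With a replicate block 8 were called higher and 8 lower, but here that block joins different animals by number and is no pairing. Of the 11 calls of lower genes 3 were of genes that passed the filter only through HA T0, with no HA T3 library over its cutoff. These were Kcna5, Kcnmb2 and Kcnn2. Kcnf1 and Kcnk1 had 1 HA T3 library over the cutoff and Kcnn4 had 2, against 3 in HA T0. The filter leaned on HA T0 for these as well, so the falls of all of them were partly fixed by it. Without 1 library the count lay between 10 and 17. The summed CPM of all 81 channel genes was 3705 to 3835 in HA T0 and 2663 to 3220 in HA T3, without overlap, and 2369 to 2785 in IgG T0 and 2595 to 3054 in IgG T3.

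Markers of other cells moved with time in HA as well. Of 4 markers of interstitial cells of Cajal 3 fell (summed 2741 to 3485 CPM in HA T0 and 1216 to 1588 in HA T3, 254 to 356 in IgG T0 and 189 to 772 in IgG T3). Smooth muscle markers fell in 4 of 13 tested (18278 to 27710 CPM in HA T0, 14447 to 16885 in HA T3), fibroblast markers in 6 of 8 and mesothelial markers in 5 of 5. The 6 mesothelial markers in the files summed to 163 to 202 CPM in HA T0 and 14.0 to 20.5 in HA T3. With a filter cutoff of 6.09 CPM for each gene, some of them could not pass through HA T3 alone. The mesothelial fall was thus partly fixed by the filter. Neuronal markers rose in 8 of 15 tested (1993 to 2597 and 2714 to 4727 CPM). Of 13 glial markers tested 3 rose and 1 fell, with sums of 4125 to 5069 CPM in HA T0 and 4904 to 5628 in HA T3. Of 4 markers of neutrophils and monocytes in the files 2 were tested and both rose (summed 2.44 to 8.38 CPM in HA T0 and 36.1 to 135 in HA T3). In HA T0 animals 1 and 4 even the sums (5.76 and 2.44 CPM) lay under the filter's cutoff of 6.09 CPM. Both genes therefore could not pass the filter through HA T0 alone, and their rise is a description. Macrophage markers fell in 3 of 8 tested (786 to 1855 and 561 to 986 CPM) and epithelial markers in 2 of 7 (111 to 369 and 46.7 to 86.9 CPM). Their part in the channel values was not tested.

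**Figure D2:**
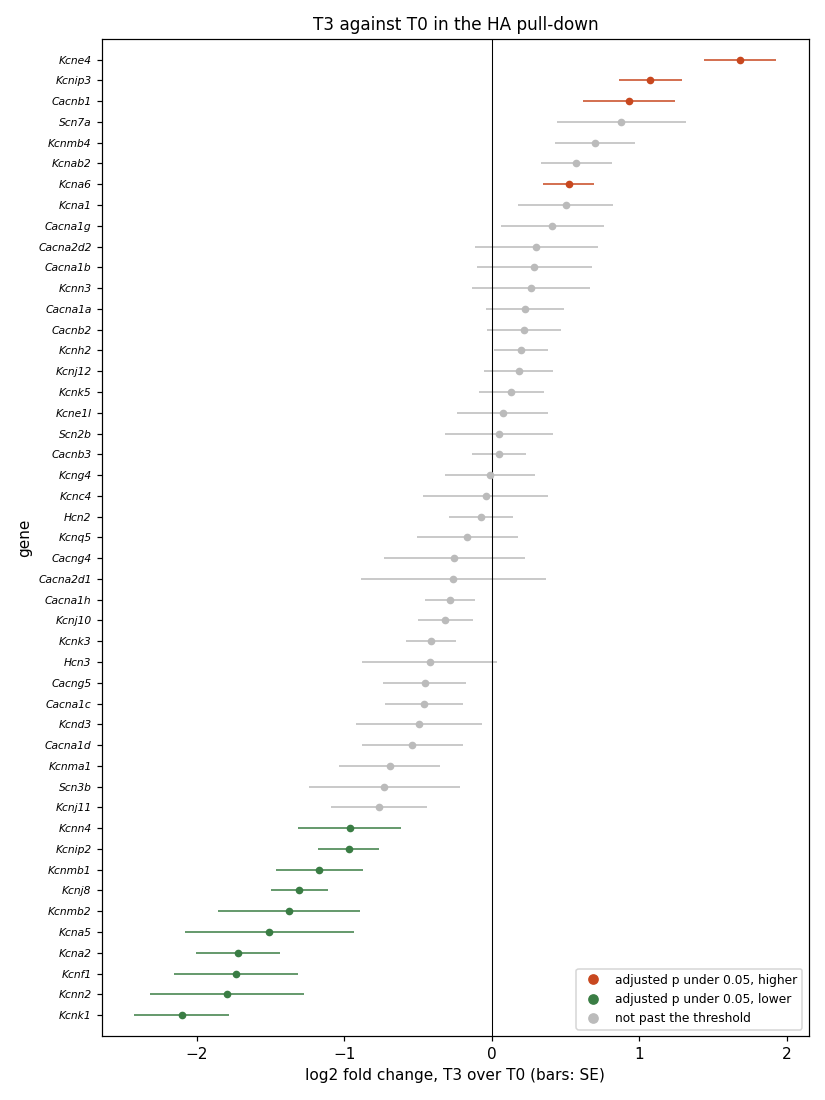
Log2 fold change of T3 against T0 in HA (horizontal axis) for 47 of the 51 channel genes tested, with bars for ± 1 SE, coloured by call. Of the genes drawn, Kcne4 (1.68) lies farthest to the right among the 4 that rose and Kcnk1 (-2.10) farthest to the left among the 10 that fell.

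In IgG, the background pull-down, 20 channel genes could be tested between T0 and T3 and 1 was called, Kcne4, which was higher at T3. Kcne4 passed the filter there only through IgG T3, so that call is a description. Of all genes tested 5.46% were called and 4.43% were called higher. The change with time was not called different between HA and IgG for any of 57 channel genes by edgeR's interaction test, against 0.330% of 10314 genes, and 5 had an unadjusted p under 0.05 (Cacna1h, Kcna2, Kcne4, Kcnj10 and Kcnj8). DESeq2 called 1 of them, Kcnj10, as did edgeR with the animal as a block. A call in HA without a call in IgG is therefore no evidence that the change differed between the pull-downs. The heatmap of library values shows 36 of the 40 channel genes called in any comparison, and Scn7a.

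**Figure D3:**
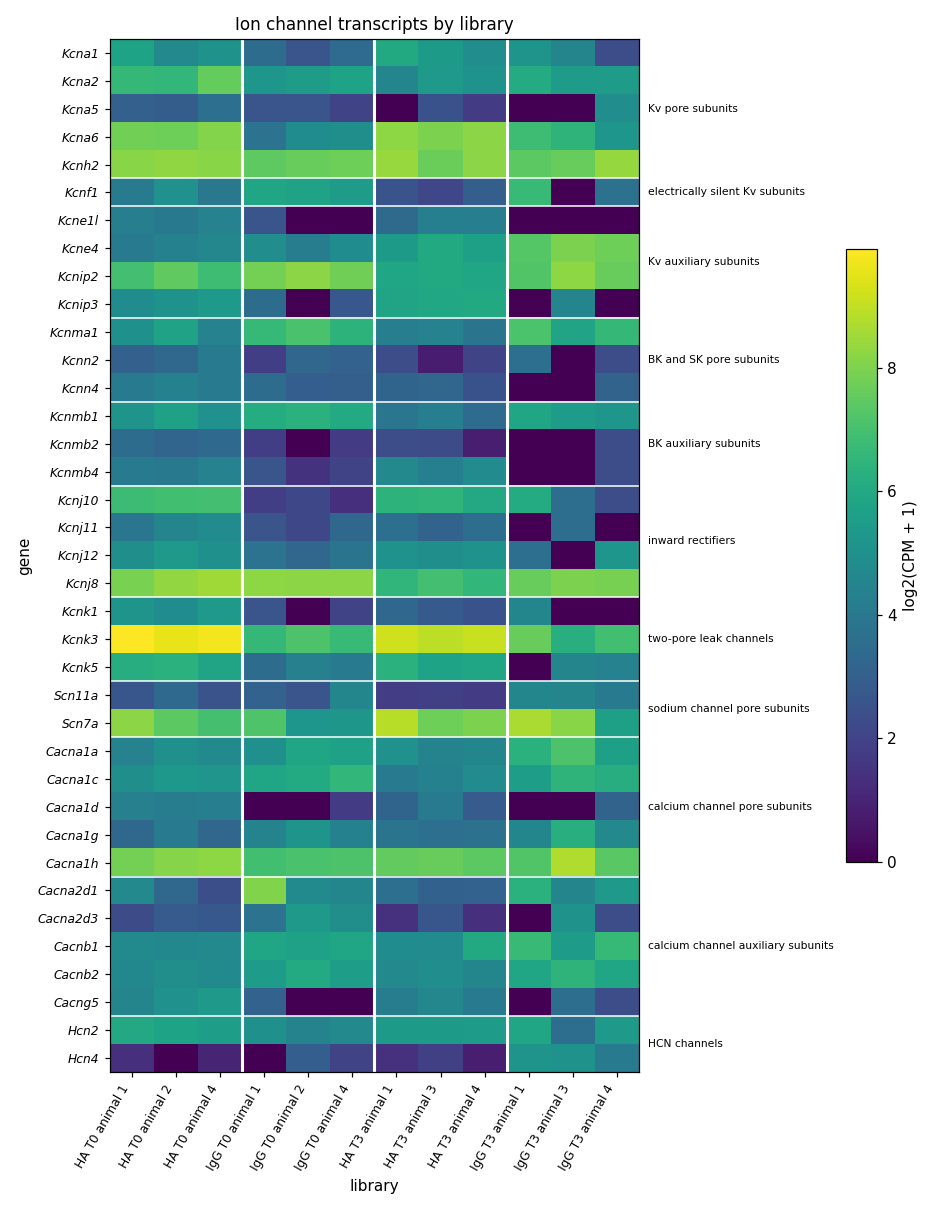
Levels of 37 channel genes, 36 of those called in at least 1 comparison and Scn7a, in each of 12 libraries, as log2(CPM + 1), with genes in rows by family and libraries in columns by group. Kcnj10, Kcnk3 and Kcna6 are high in all 6 HA libraries, and Kcne4 is high in the 3 IgG T3 libraries.

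Below, library values are given in the order of animals 1, 2 and 4 at T0 and 1, 3 and 4 at T3, followed by the log2 fold change ± SE (log2 FC) and the adjusted p of edgeR's quasi-likelihood test. These tests left the animal out. Of the alternatives only the animal block pairs the HA and IgG libraries of 1 animal. A call lost without animal 1 in HA T0 was lost when that library was left out. With the IgG T3 libraries of animals 1 and 3 left out together, an alternative added after seeing the data, 1 IgG T3 library remained, and it was assumed to vary like the others. Levels are compared within a gene only, since 3′ counts of different genes depend on how each 3′ end is captured.

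The Kv1 genes encode delayed rectifiers of axons and glia, and 3 of them were enriched in HA at T0, with different courses after manipulation. Kcna6 (Kv1.6, chr6:126708329-126740674, minus strand) was at 222, 213 and 273 CPM in HA T0 and 12.9, 27.4 and 29.5 in IgG T0. At T3, Kcna6 was at 304, 247 and 294 in HA and 113, 86.9 and 36.2 in IgG. The HA libraries lay above all IgG libraries at both times (log2 FC 3.22 ± 0.26, adjusted p = 8.62e-07 at T0, and log2 FC 2.14 ± 0.35, adjusted p = 0.000317 at T3). Kcna6 rose between T0 and T3 in HA by the test (log2 FC 0.52 ± 0.17, adjusted p = 0.0244), with 1 HA T3 library inside the HA T0 range. That call was not made when scaled by total counts, in a fit of all 12 libraries or without animal 1 or 2 in HA T0 or 1 or 4 in HA T3 (adjusted p 0.0733 to 0.269). In IgG its values at T3 all lay above those at T0 and did not pass the test (adjusted p = 0.110).

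Kcna2 (Kv1.2, chr3:107101146-107115005, plus strand) was at 96.8, 94.99 and 191 CPM in HA T0 and 36.1, 42.9 and 52.7 in IgG T0. At T3, Kcna2 was at 22.1, 40.8 and 31.9 in HA and 68.1, 43.5 and 44.3 in IgG. At T0 it lay above IgG without overlap (log2 FC 1.46 ± 0.29, adjusted p = 0.00175). At T3 it was below IgG in every library without passing the test (log2 FC -0.56 ± 0.44, adjusted p = 0.395). Within HA it fell (log2 FC -1.72 ± 0.29, adjusted p = 0.000343), and all 3 HA T3 libraries lay below all HA T0 libraries. The difference of this change from IgG had a log2 size of -1.77 (SE 0.53, adjusted p = 0.197) and did not pass the threshold.

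Kcna1 (Kv1.1, chr6:126640397-126646384, minus strand) was at 52.98, 24.6 and 33.4 CPM in HA T0 and 10.3, 5.14 and 10.1 in IgG T0. At T3, Kcna1 was at 63.8, 41.5 and 28.03 in HA and 34.04, 21.7 and 4.02 in IgG. It was higher in HA at T0 without overlap (log2 FC 2.07 ± 0.42, adjusted p = 0.00214). At T3 the groups overlapped through the IgG library of animal 1 (log2 FC 1.67 ± 0.67, adjusted p = 0.0804). The IgG T3 values were at or under what a count of 0 allows there (34.0, 32.6 and 12.1 CPM), so every T3 result of Kcna1 rests on few IgG counts. The difference passed with no filter (1.90, adjusted p = 0.0149) and with a filter of 5 counts in 1 library (1.85, adjusted p = 0.0190). It also passed without the IgG T3 library of animal 1 (2.43, adjusted p = 0.0389) and with all 12 libraries fitted together (1.93, adjusted p = 0.0324). With the IgG T3 libraries of animals 1 and 3 both left out, chosen for their glial markers, 1 IgG library, the lowest, remained and the log2 FC was 3.55. Its change with time in HA did not pass (log2 FC 0.499 ± 0.32, adjusted p = 0.256), except without the HA T0 library of animal 1 (0.87, adjusted p = 0.0409). Kcna5 (Kv1.5) was at 7.29, 6.70 and 11.5 CPM in HA T0 and 0, 4.68 and 2.34 in HA T3 and fell in HA (log2 FC -1.51 ± 0.57, adjusted p = 0.0487). Kcna5 passed the filter only through HA T0, so the call is a description. That call was lost with no filter, with a filter of 5 counts in 1 library, by DESeq2 or without animal 1, 2 or 4 in HA T0 or 1 or 4 in HA T3 (adjusted p 0.0597 to 0.206).

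**Figure D4:**
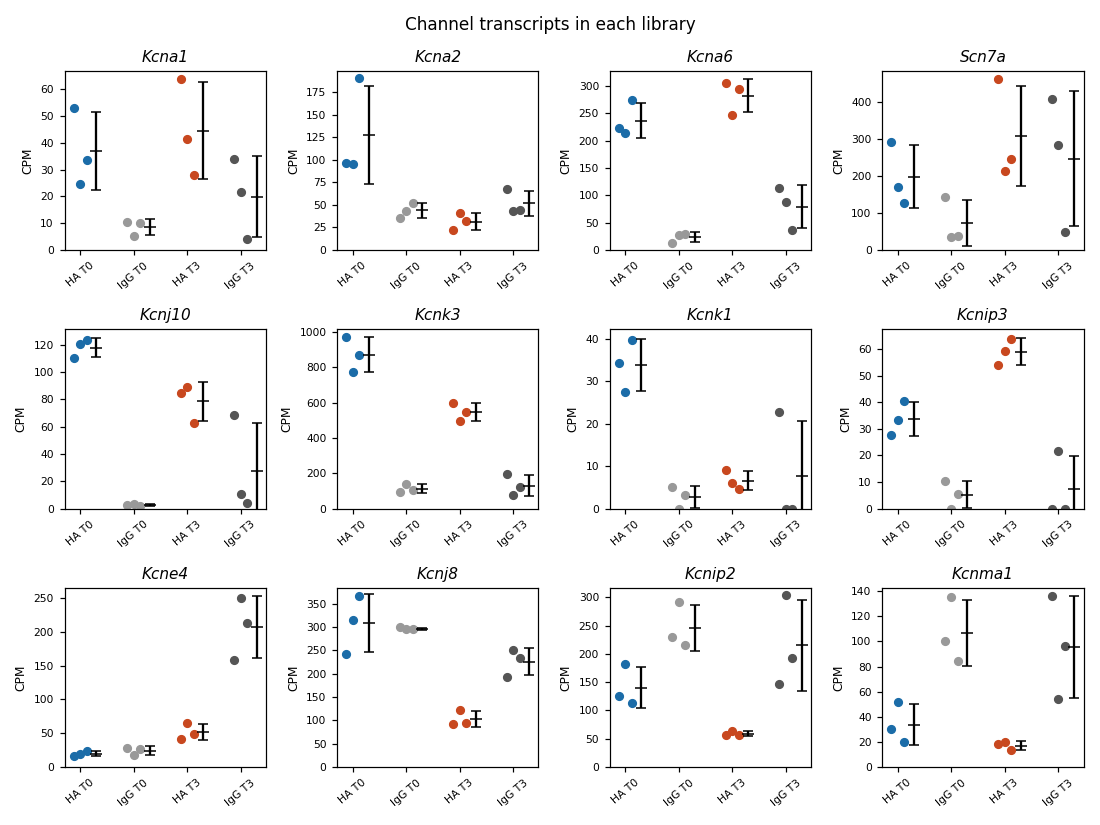
CPM of 12 channel genes in each library (dots), by group (horizontal axis), with mean ± SD over 3 libraries, each panel on its own vertical axis from 0. Kcna2, Kcnk1 and Kcnj8 were lower in HA T3 than in HA T0, Kcnip3 and Kcne4 higher, and the Scn7a values of HA and IgG overlapped at each time.

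Among the other Kv pores, Kcnh2 (the ERG channel, which sets the resting potential of gut muscle) was at 286, 305 and 287 CPM in HA T0 and 175, 194 and 210.1 in IgG T0 and was higher in HA at T0 (log2 FC 0.57 ± 0.18, adjusted p = 0.0291), without overlap. The call at T0 was lost in a fit of all 12 libraries or without animal 1 or 2 in HA T0 or 1 or 2 in IgG T0 (adjusted p 0.0575 to 0.0865). Kcnc2 (Kv3.2, a channel of fast-firing neurons) was at 9.21, 3.35 and 3.14 CPM in HA T0 and 74.7, 3.43 and 7.75 in IgG T0, with 1 high IgG library. It passed with the animal as a block, which pairs HA and IgG (log2 FC -2.02, adjusted p = 0.00266). It passed in none of the other 11 alternatives that tested it, all of which leave the pairing out. Kcnc4, Kcnd3 and Kcnq5 were at 10.3 ± 1.97, 16.9 ± 7.69 and 16.9 ± 1.66 CPM in HA T0 and 9.95 ± 8.06, 27.4 ± 9.65 and 8.71 ± 3.63 in IgG T0 and passed no test.

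Silent Kv subunits form no channel alone and modify other Kv channels. Kcnf1 was lower in the HA pull-down at T0 and fell in it. It was at 16.1, 31.3 and 14.6 CPM in HA T0 and 56.7, 51.4 and 43.4 in IgG T0. At T3, Kcnf1 was at 4.91, 3.34 and 7.01 in HA and 102, 0 and 12.1 in IgG. The groups overlapped in neither comparison (log2 FC -1.31 ± 0.33, adjusted p = 0.00832 at T0, and log2 FC -1.74 ± 0.42, adjusted p = 0.00321 between T0 and T3 in HA). Kcnf1 had 1 HA T3 library over the filter's cutoff, against 3 in HA T0, so its fall was partly fixed by the filter. In IgG T3, 1 library was at 102 CPM and another at 0. Kcng2 was at 10.8, 9.50 and 3.48 CPM in HA T0 and 28.3, 30.9 and 6.98 in IgG T0, overlapping, and passed with the animal as a block (log2 FC -1.42, adjusted p = 0.00873) and without animal 4 in IgG T0 (log2 FC -1.92, adjusted p = 0.0192). Kcng4 was at 21.5 ± 4.77 and 21.5 ± 5.39 CPM in HA T0 and IgG T0.

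Kcnip3 (also called calsenilin or DREAM, a calcium-binding protein that tunes Kv4 channels and can repress transcription) and Kcne4 (a single-pass subunit that inhibits several Kv channels) both rose in HA. Kcnip3 (chr2:127456498-127522094, minus strand) was at 27.6, 33.5 and 40.4 CPM in HA T0 and 10.3, 0 and 5.43 in IgG T0. At T3, Kcnip3 was at 54.02, 59.5 and 63.8 in HA and 0, 21.7 and 0 in IgG. All HA T3 libraries lay above all HA T0 libraries (log2 FC 1.07 ± 0.21, adjusted p = 0.000675), and HA lay above IgG at T0 (log2 FC 2.75 ± 0.51, adjusted p = 0.00120). At T3 the counts were 237 in HA and 2 in IgG, a ratio per total count of 12.7 (95% counting interval 3.48 to 105), and the test passed (adjusted p = 0.00229).

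Kcne4 (chr1:78816758-78820028, plus strand) was at 15.7, 19.6 and 22.99 CPM in HA T0 and 28.3, 17.1 and 27.1 in IgG T0. At T3, Kcne4 was at 41.7, 64.9 and 48.3 in HA and 159, 249.9 and 213 in IgG. At T0 HA and IgG overlapped. Every T3 library lay above every T0 library of the same antibody, in HA (log2 FC 1.68 ± 0.25, adjusted p = 2.46e-05) and in IgG (log2 FC 3.06 ± 0.38, adjusted p = 0.000185), where it passed the filter only through IgG T3. The IgG call is therefore a description. At T3 HA lay below IgG (log2 FC -1.92 ± 0.30, adjusted p = 0.000203). Library values of Kcne4 were thus higher at T3 in both pull-downs, and the T3 level was lower in HA.

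Kcnip2 (KChIP2, a subunit of the transient outward current) ran the other way, at 125, 182 and 114 CPM in HA T0 and 229, 291 and 215 in IgG T0. At T3, Kcnip2 was at 57.3, 63.5 and 56.8 in HA and 147, 304 and 193 in IgG. It was lower in HA at T0 (log2 FC -0.83 ± 0.23, adjusted p = 0.0124) and at T3 (log2 FC -1.74 ± 0.30, adjusted p = 0.000392) and fell in HA (log2 FC -0.97 ± 0.21, adjusted p = 0.00123), without overlap in any of these. The call at T0 was lost without animal 1 or 4 in HA T0 or 2 in IgG T0 (adjusted p 0.0520 to 0.0633). Kcne1l, an X-linked relative of Kcne1, was at 18.04, 15.1 and 20.2 CPM in HA T0 and 5.15, 0 and 0 in IgG T0. At T3, Kcne1l was at 9.82, 18.7 and 17.9 in HA and 0, 0 and 0 in IgG. It had 132 counts in HA T0 and 2 in IgG T0, a ratio per total count of 20.5 (95% counting interval 5.58 to 171, adjusted p = 0.00155), and no count in IgG T3, which allows up to 12.1 to 34.0 CPM there. Kcne1l passed the filter at T0 only through HA, so its T0 call is a description. Kcnab2, a Kv1 beta subunit, was at 32.1 ± 3.56 CPM in HA T0 and 39.9 ± 11.5 in HA T3 and passed no test. Kcnab1 and Kcnip1 reached 11.4 ± 6.79 and 10.5 ± 5.17 CPM in IgG T0 and stayed at 1.78 ± 0.886 and 5.62 ± 3.20 in HA T0, and only Kcnip1 was tested, without passing (adjusted p = 0.267).

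The inward rectifier Kcnj10 (Kir4.1, chr1:172341210-172374085, plus strand) carries the potassium uptake of glia. Its level was 109.8, 120.1 and 123 CPM in HA T0 and 2.58, 3.43 and 1.55 in IgG T0. At T3, Kcnj10 was at 84.3, 88.9 and 62.3 in HA and 68.1, 10.9 and 4.02 in IgG. At T0 every HA library lay far above every IgG library (log2 FC 5.64 ± 0.36, adjusted p = 1.16e-07). Kcnj10 passed the filter at T0 only through HA, so that call is a description. At T3 the difference was smaller (log2 FC 2.07 ± 0.59, adjusted p = 0.0173) and the groups overlapped through the IgG library of animal 1, 1 of the 2 that also held more glial markers. The T3 call was lost without animal 1 or 3 in HA T3 or 4 in IgG T3 (adjusted p 0.0631 to 0.172). In HA the T3 libraries lay below the T0 libraries without passing (log2 FC -0.32 ± 0.18, adjusted p = 0.196), and with total counts as scaling the fall passed (-0.58, adjusted p = 0.0174). The interaction had a log2 size of -3.303 (SE 0.91, adjusted p = 0.140). All IgG values of Kcnj10 but that of animal 1 at T3 were under what a count of 0 allows in their libraries. The interaction thus rests on few IgG counts. It passed by DESeq2 (-3.52, adjusted p = 0.00976), with the animal as a block, which pairs HA and IgG (-3.37, adjusted p = 0.0346), and without the IgG T3 library of animal 4 (-4.22, adjusted p = 0.0173).

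Kcnj8 (Kir6.1, the pore of ATP-sensitive channels in vessels and muscle, chr6:142564837-142571614, minus strand) was at 242, 315 and 365 CPM in HA T0 and 299, 295 and 295 in IgG T0. At T3, Kcnj8 was at 92.5, 122 and 93.4 in HA and 193, 249.9 and 233 in IgG. HA and IgG overlapped at T0. In HA all T3 libraries lay below all T0 libraries (log2 FC -1.31 ± 0.19, adjusted p = 2.69e-05), and at T3 HA lay below IgG (log2 FC -1.05 ± 0.27, adjusted p = 0.00979). The latter call was lost without animal 4 in HA T3 or 4 in IgG T3 (adjusted p 0.0598 to 0.114). Kcnj11 (Kir6.2) and Kcnj12 (Kir2.2) were higher in HA at T0, at 13.8, 21.8 and 26.5 CPM in HA T0 and 5.15, 3.43 and 9.30 in IgG T0 for Kcnj11 (log2 FC 1.58 ± 0.46, adjusted p = 0.0173). Kcnj12 was at 29.9, 39.1 and 31.00 CPM in HA T0 and 12.9, 8.57 and 13.2 in IgG T0 (log2 FC 1.47 ± 0.33, adjusted p = 0.00434). HA and IgG did not overlap for either, and the call was lost for Kcnj11 without animal 2 in IgG T0 or 4 in HA T0 (adjusted p 0.0587 to 0.0696).

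Tandem-pore leak channels set the resting potential. All 3 that were tested at T0, Kcnk1, Kcnk3 and Kcnk5, were higher in HA (background 16.0%), and 1 of them fell after manipulation (background 15.1%). Kcnk1 came into the T0 test only through its HA libraries. Kcnk3 (TASK-1, an acid-sensitive leak channel, chr5:30588170-30625271, plus strand) was at 969.8, 774 and 869 CPM in HA T0 and 95.3, 141 and 104 in IgG T0. At T3, Kcnk3 was at 595, 494 and 547 in HA and 193, 76.1 and 121 in IgG. HA lay above IgG in every library at T0 (log2 FC 2.92 ± 0.22, adjusted p = 4.10e-07) and T3 (log2 FC 2.17 ± 0.32, adjusted p = 0.000109). Its HA T3 libraries all lay below its HA T0 libraries, but this difference did not pass (adjusted p = 0.0648). Kcnk5 (TASK-2) was at 72.6, 79.9 and 55.04 CPM in HA T0 and 10.3, 18.9 and 15.5 in IgG T0. At T3, Kcnk5 was at 79.4, 52.8 and 57.6 in HA and 0, 21.7 and 20.1 in IgG. HA exceeded IgG at T0 (log2 FC 2.14 ± 0.31, adjusted p = 0.000175) and T3 (log2 FC 2.03 ± 0.55, adjusted p = 0.0125) without overlap.

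Kcnk1 (TWIK-1, chr8:125995170-126030685, plus strand) was at 34.2, 27.4 and 39.7 CPM in HA T0 and 5.15, 0 and 3.10 in IgG T0. At T3, Kcnk1 was at 9.003, 6.02 and 4.67 in HA and 22.7, 0 and 0 in IgG. It was higher in HA at T0 (log2 FC 3.62 ± 0.52, adjusted p = 0.000163) and fell in HA at T3 (log2 FC -2.105 ± 0.32, adjusted p = 4.02e-05), and neither pair of groups overlapped. Since Kcnk1 passed the filter at T0 only through HA, its T0 call is a description. It had 1 HA T3 library over the filter's cutoff, against 3 in HA T0, so its fall was partly fixed by the filter. The IgG T3 libraries held too few counts for a test at T3. Kcnk2 (TREK-1), at 3.82 ± 1.98 CPM in HA T0 against 11.3 ± 6.46 in IgG T0, passed the filter for the interaction alone and was not called there. Its counting window overlaps an exon of 2900042K21Rik on the same strand, so its counts are uncertain.

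Of the calcium-activated group, the BK pore Kcnma1 and its smooth muscle subunit Kcnmb1 were lower in HA, and the subunits Kcnmb2 and Kcnmb4 were higher. Kcnma1 was at 30.3, 51.4 and 19.9 CPM in HA T0 and 100.5, 135 and 84.5 in IgG T0. At T3, Kcnma1 was at 18.01, 20.1 and 13.2 in HA and 136, 54.3 and 96.6 in IgG. HA lay below IgG without overlap at T0 (log2 FC -1.68 ± 0.34, adjusted p = 0.00236) and T3 (log2 FC -2.39 ± 0.41, adjusted p = 0.000413). Kcnmb1 was at 33.8, 50.8 and 31.4 CPM in HA T0 and 69.5, 80.6 and 65.9 in IgG T0. At T3, Kcnmb1 was at 13.9, 18.1 and 10.1 in HA and 56.7, 43.5 and 36.2 in IgG. It was lower in HA at T0 (log2 FC -0.92 ± 0.26, adjusted p = 0.0163) and T3 (log2 FC -1.51 ± 0.49, adjusted p = 0.0323) and fell in HA (log2 FC -1.17 ± 0.30, adjusted p = 0.00467), each without overlap. The summed smooth muscle markers were at 45185 to 74054 CPM in IgG and 14447 to 27710 in HA. The call of Kcnmb1 was lost at T0 without animal 1 or 4 in HA T0 or 2 in IgG T0 (adjusted p 0.0556 to 0.0827) and at T3 with no filter, with a filter of 5 counts in 1 library, without the IgG T3 libraries of animals 1 and 3 together or without animal 1 or 4 in HA T3 or 1, 3 or 4 in IgG T3 (adjusted p 0.0643 to 0.180).

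Kcnmb4, the neuronal BK subunit, was at 16.1, 15.1 and 19.9 CPM in HA T0 and 5.15, 1.71 and 3.10 in IgG T0. At T3, Kcnmb4 was at 24.6, 18.7 and 26.5 in HA and 0, 0 and 4.02 in IgG. HA exceeded IgG at T0 (log2 FC 2.398 ± 0.50, adjusted p = 0.00243). Kcnmb4 passed the filter only through HA at T0 and at T3, so its calls are descriptions. At T3 it had 92 counts in HA and 1 in IgG, a ratio per total count of 9.86 (95% counting interval 1.73 to 393, adjusted p = 0.0198), and this call was lost without the IgG T3 libraries of animals 1 and 3 together or without animal 4 in IgG T3 (adjusted p 0.0637 to 0.0790). Its window overlaps an exon of Kcnmb4os1 on the opposite strand, and whether counting used strand is not given in the sources used here. Kcnmb2 was at 10.4, 8.38 and 9.41 CPM in HA T0 and 2.58, 0 and 2.33 in IgG T0. At T3, Kcnmb2 was at 4.09, 4.01 and 0.779 in HA and 0, 0 and 4.02 in IgG. It was higher in HA at T0 (log2 FC 2.36 ± 0.65, adjusted p = 0.0137) and lower at T3 than at T0 in HA (log2 FC -1.38 ± 0.48, adjusted p = 0.0321). Its HA T0 values lay above all others, and through them alone it passed the filter, so both calls are descriptions. The calls were lost at T0 without animal 1 in HA T0 (adjusted p = 0.0512) and between T0 and T3 by DESeq2, in a fit of all 12 libraries or without animal 1 or 2 in HA T0 or 1 or 4 in HA T3 (adjusted p 0.0503 to 0.188).

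The small-conductance channel Kcnn2 was at 7.29, 8.94 and 15.7 CPM in HA T0 and 4.09, 0.669 and 3.11 in HA T3 and the intermediate-conductance channel Kcnn4 at 16.1, 19.6 and 15.7 CPM in HA T0 and 8.18, 8.69 and 4.67 in HA T3. Both fell in HA without overlap (Kcnn2 log2 FC -1.798 ± 0.52, adjusted p = 0.0118, and Kcnn4 log2 FC -0.97 ± 0.35, adjusted p = 0.0369). Kcnn2 passed the filter only through HA T0, so its call is a description. Kcnn4 had 2 HA T3 libraries over the filter's cutoff, against 3 in HA T0, so its call leaned in part on HA T0. The calls were lost for Kcnn2 without animal 4 in HA T0 or 3 in HA T3 (adjusted p 0.0696 to 0.0766) and Kcnn4 by DESeq2, in a fit of all 12 libraries or without animal 1 or 2 in HA T0 or 1 or 4 in HA T3 (adjusted p 0.0614 to 0.178). The window of Kcnn2 overlaps an exon of A330093E20Rik on the opposite strand. Kcnn3, the SK channel of interstitial PDGFRα-positive cells, was at 6.62 ± 1.90 CPM in HA T0 and 12.3 ± 4.77 in IgG T0 and passed no test.

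Scn7a (Nax, a sodium sensor of glia and Schwann cells, chr2:66673425-66784914, minus strand) spread widely between libraries. It was at 293, 172 and 128 CPM in HA T0 and 144, 36.00 and 37.2 in IgG T0. At T3, Scn7a was at 462, 213 and 246 in HA and 408, 283 and 48.3 in IgG. HA and IgG overlapped at T0 through the IgG library of animal 1 (log2 FC 1.55 ± 0.70, adjusted p = 0.163), and without that library the difference passed (log2 FC 2.44, adjusted p = 0.00109). In every T0 animal HA was above IgG, and with the animal as a block the difference passed (1.60, adjusted p = 2.67e-06). At T3 it did not pass (log2 FC 0.59 ± 0.61, adjusted p = 0.544), with the block neither (0.70, adjusted p = 0.143), and with no filter it did (0.87, adjusted p = 0.0463). With the IgG T3 libraries of animals 1 and 3 both left out, 1 IgG library, the lowest, remained and the log2 FC was 2.79. The change with time did not pass in HA (log2 FC 0.88 ± 0.44, adjusted p = 0.181). It did without the HA T0 library of animal 1 (1.30, adjusted p = 0.0104) and with a replicate block (1.06, adjusted p = 3.99e-05). That block joins different animals by number, so its result decides nothing. In IgG the change did not pass (log2 FC 1.67 ± 0.84, adjusted p = 0.303), except with no filter (1.53, adjusted p = 0.0287) and without the IgG T0 library of animal 1 (2.53, adjusted p = 0.0306).

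Scn11a (Nav1.9, of enteric sensory neurons) was at 5.38, 9.50 and 4.88 CPM in HA T0 and 7.73, 5.14 and 22.5 in IgG T0. At T3, Scn11a was at 2.46, 2.67 and 2.34 in HA and 22.7, 21.7 and 16.1 in IgG. At T3 it lay below IgG without overlap (log2 FC -2.76 ± 0.64, adjusted p = 0.00475). These values rest on 2, 2 and 4 counts in IgG T3 and 3, 4 and 3 in HA T3, and Scn11a passed the filter only through IgG T3, where it was high, so that the call is a description.

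Scn9a, Scn2b and Scn3b, which encode the neuronal channel Nav1.7 and beta subunits, were at 48.9, 5.14 and 9.30, 69.5, 3.43 and 14.7 and 20.6, 0 and 12.4 CPM in IgG T0. For each of them the IgG T0 library of animal 1 was the high one. In HA T0 they were at 1.33 ± 1.52, 9.66 ± 1.44 and 6.95 ± 2.11 CPM. Scn9a was tested in no comparison, and Scn2b and Scn3b passed no test.

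Calcium channel pores went both ways within a type. The T-type gene Cacna1h and the L-type gene Cacna1d were higher in HA at T0, while the muscle L-type gene Cacna1c, the P/Q-type gene Cacna1a and the T-type gene Cacna1g were lower. Cacna1h was at 227, 278 and 298 CPM in HA T0 and 121, 134 and 141 in IgG T0. At T3, Cacna1h was at 183, 193 and 169.7 in HA and 147, 424 and 165 in IgG. HA and IgG did not overlap at T0 (log2 FC 0.98 ± 0.19, adjusted p = 0.00148). At T3 HA lay inside the IgG range, which 1 IgG library stretched to 424 CPM. Cacna1d was at 18.8, 17.3 and 18.1 CPM in HA T0 and 0, 0 and 2.33 in IgG T0, with 132 counts in HA and 3 in IgG, a ratio per total count of 13.7 (95% counting interval 4.59 to 67.3, adjusted p = 0.000705). Cacna1d passed the filter at T0 only through HA, so its call is a description. The windows of Cacna1h, Cacna1d and Cacna1a overlap exons of Tpsg1, Chdh and Gm16183 on the opposite strand.

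Cacna1c was at 29.6, 37.99 and 34.8 CPM in HA T0 and 56.7, 66.8 and 94.6 in IgG T0. At T3, Cacna1c was at 15.6, 19.4 and 26.5 in HA and 45.4, 86.9 and 72.4 in IgG. HA lay below IgG without overlap at T0 (log2 FC -1.16 ± 0.26, adjusted p = 0.00387) and T3 (log2 FC -1.67 ± 0.42, adjusted p = 0.00746). Cacna1a was at 20.3, 30.2 and 26.1 CPM in HA T0 and 30.9, 56.6 and 50.4 in IgG T0. At T3, Cacna1a was at 31.1, 20.7 and 22.6 in HA and 79.4, 141 and 48.3 in IgG. It was also below IgG without overlap at both times (log2 FC -0.92 ± 0.29, adjusted p = 0.0254, and log2 FC -1.601 ± 0.43, adjusted p = 0.0115). Cacna1g was at 9.21, 16.2 and 8.71 CPM in HA T0 and 20.6, 34.3 and 19.4 in IgG T0 (log2 FC -1.15 ± 0.40, adjusted p = 0.0410). The T0 calls were lost for Cacna1a without animal 1 or 4 in HA T0 or 2 or 4 in IgG T0 (adjusted p 0.0795 to 0.107) and Cacna1g with no filter, with a filter of 5 counts in 1 library, by DESeq2 or without animal 1 or 4 in HA T0 or 2 or 4 in IgG T0 (adjusted p 0.0502 to 0.186). The T3 calls were lost for Cacna1a without the IgG T3 libraries of animals 1 and 3 together or without animal 3 in IgG T3 (adjusted p 0.100 to 0.287) and Cacna1c without animal 4 in IgG T3 (adjusted p = 0.125). No calcium channel pore was called between T0 and T3 in HA, where 6 were tested, against 33.8% of all genes tested.

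Of 7 auxiliary calcium channel subunits tested at T0, 3 were lower in HA (background 14.4%) and 1, Cacng5, was higher (background 16.0%). Of 5 tested at T3, 2 were lower (background 10.2%). Cacng5, a relative of the AMPA receptor subunit stargazin, was at 21.9, 31.8 and 40.1 CPM in HA T0 and 7.73, 0 and 0 in IgG T0. At T3, Cacng5 was at 17.2, 23.4 and 15.6 in HA and 0, 10.9 and 4.02 in IgG. It had 229 counts in HA T0 and 3 in IgG T0, a ratio per total count of 23.8 (95% counting interval 8.03 to 116, adjusted p = 0.00136). Cacnb1 was at 26.1, 23.5 and 24.7 CPM in HA T0 and 56.7, 49.7 and 55.8 in IgG T0. At T3, Cacnb1 was at 27.01, 26.7 and 64.6 in HA and 102, 43.5 and 101 in IgG. It was lower in HA at T0 (log2 FC -1.15 ± 0.25, adjusted p = 0.00345) and rose in HA by the test (log2 FC 0.93 ± 0.31, adjusted p = 0.0288), although 2 of 3 HA T3 libraries lay within 1 CPM of the highest HA T0 library. That call was lost when scaled by total counts or without animal 1, 2 or 4 in HA T0 or 4 in HA T3 (adjusted p 0.0523 to 0.352).

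Cacnb2 was at 23.8, 29.1 and 25.4 CPM in HA T0 and 43.8, 66.8 and 46.5 in IgG T0. At T3, Cacnb2 was at 24.6, 28.1 and 22.6 in HA and 56.7, 86.9 and 56.3 in IgG. It was lower in HA at T0 (log2 FC -1.03 ± 0.27, adjusted p = 0.00970) and T3 (log2 FC -1.26 ± 0.40, adjusted p = 0.0286) without overlap. Its calls were lost at T0 without animal 2 in IgG T0 (adjusted p = 0.0509) and at T3 with no filter, with a filter of 5 counts in 1 library, in a fit of all 12 libraries, without the IgG T3 libraries of animals 1 and 3 together or without animal 1 or 4 in HA T3 or 1, 3 or 4 in IgG T3 (adjusted p 0.0505 to 0.150). The alpha2delta subunits Cacna2d1 and Cacna2d3 carry pores to the surface, and each was called lower in HA at 1 time. Cacna2d1 was at 24.2, 8.94 and 4.18 CPM in HA T0 and 260.2, 25.7 and 22.5 in IgG T0. At T3, Cacna2d1 was at 11.5, 7.36 and 7.79 in HA and 79.4, 21.7 and 40.2 in IgG. At T3 it was lower without overlap (log2 FC -2.26 ± 0.53, adjusted p = 0.00516), and that call was lost in a fit of all 12 libraries or without animal 4 in HA T3 (adjusted p 0.0519 to 0.417). At T0 the IgG library of animal 1 lay far above the other IgG libraries. The difference passed with the animal as a block, which pairs HA and IgG (log2 FC -2.72, adjusted p = 7.63e-07). It passed in none of the other 12 alternatives, all of which leave the pairing out. Cacna2d3 was at 3.84, 6.15 and 5.57 CPM in HA T0 and 12.9, 39.4 and 28.7 in IgG T0 (log2 FC -2.45 ± 0.43, adjusted p = 0.000713). Both calls were of genes that passed the filter only through IgG. Cacng4 was at 7.68, 6.70 and 4.18 CPM in HA T0 and 0, 1.71 and 0 in IgG T0, without overlap, and was not tested there. Cacnb3 was at 135 ± 19.8 CPM in HA T0 and 147 ± 26.1 in IgG T0, and Cacna2d2 at 6.42 ± 0.960 and 7.76 ± 4.77, and neither passed a test.

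HCN channels carry the pacemaker current. Hcn2 was at 61.8, 53.6 and 44.6 CPM in HA T0 and 30.9, 20.6 and 24.8 in IgG T0. At T3, Hcn2 was at 40.9, 41.5 and 44.4 in HA and 56.7, 10.9 and 40.2 in IgG. At T0 it exceeded IgG without overlap (log2 FC 1.07 ± 0.29, adjusted p = 0.0124), and this call was lost without animal 1 in HA T0 (adjusted p = 0.0586). Its window overlaps an exon of Polrmt on the opposite strand. Hcn4 was at 1.54, 0 and 1.05 CPM in HA T0 and 0, 6.86 and 3.10 in IgG T0. At T3, Hcn4 was at 1.64, 2.67 and 0.779 in HA and 34.04, 32.6 and 16.1 in IgG. At T3 it lay below IgG (log2 FC -3.58 ± 0.68, adjusted p = 0.00100), with 3, 3 and 4 counts in the IgG T3 libraries, through which alone it passed the filter, so that the call is a description. It could be tested in 6 of 14 alternatives.

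A further 23 channel genes were at low levels, among them Cacna1b, Cacnb4, Cacng2, Cacng4, Hcn3, Kcnab3, Kcnc1, Kcnd1, Kcnd2, Kcnh1, Kcnh3, Kcnip4, Kcnj2, Kcnj3, Kcnj5, Kcnk10, Kcnk13, Kcnk6, Kcnk7, Kcns3, Kcnu1 and Scn4b. Their mean stayed under 10 CPM in every group and none was called. Over all 81, 22 genes passed the filter in no comparison, and their largest count in any library was 24.

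Genes that work with these channels were followed as lists. Of 20 Kv1 complex and axonal scaffold partners in the files 16 were tested at T0, and 5 were higher in HA and none lower (median log2 FC 0.46), a share called near the 30.3% of all genes. At T3, 3 were higher and 1 lower of 11, against 21.9% of all genes called. Lgi4, a secreted ligand that glia use to organise axons, was at 506, 493 and 511 CPM in HA T0 and 30.9, 27.4 and 31.8 in IgG T0. At T3, Lgi4 was at 649.9, 451 and 456 in HA and 79.4, 21.7 and 64.4 in IgG. HA lay far above IgG at both times (log2 FC 4.03 ± 0.22, adjusted p = 3.67e-08, and log2 FC 3.25 ± 0.37, adjusted p = 1.16e-05). Its receptor family members Adam11 and Adam23 were also higher at T0 (Adam11 log2 FC 3.23 ± 0.45, adjusted p = 0.00106, and Adam23 log2 FC 1.91 ± 0.49, adjusted p = 0.0102), as was the adhesion molecule Nfasc (log2 FC 1.54 ± 0.44, adjusted p = 0.0160). Between T0 and T3 in HA 16 were tested. Lgi2 (log2 FC -1.29 ± 0.25, adjusted p = 0.000514) and Amigo1, an adhesion molecule that modulates Kv channels (log2 FC -1.04 ± 0.32, adjusted p = 0.0173), fell, and Adam23 rose (log2 FC 0.73 ± 0.23, adjusted p = 0.0214). The T0 calls were lost for Adam23 without animal 4 in IgG T0 (adjusted p = 0.0752) and Nfasc without animal 2 or 4 in IgG T0 (adjusted p 0.0582 to 0.0628). The calls between T0 and T3 were lost for Adam23 when scaled by total counts, in a fit of all 12 libraries or without animal 2 or 4 in HA T0 or 1 in HA T3 (adjusted p 0.0750 to 0.204) and Amigo1 without animal 4 in HA T0 or 1 or 4 in HA T3 (adjusted p 0.0621 to 0.0948).

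Calcium channel regulators were followed with time as well. Of 13 tested in HA 6 rose (background 18.7%) and 2 fell (background 15.1%), with a median log2 FC of 0.53, beside -0.02 of all genes, and of 8 tested in IgG 3 rose (background 4.43%). Rrad and Gem, small GTPases that inhibit L-type channels, and Pde4b, a phosphodiesterase that lowers cyclic AMP, rose. Pde4b was at 34.2, 25.1 and 37.97 CPM in HA T0 and 36.1, 53.1 and 46.5 in IgG T0. At T3, Pde4b was at 247, 244 and 163 in HA and 533, 163 and 322 in IgG. T0 and T3 did not overlap in HA (log2 FC 2.998 ± 0.22, adjusted p = 1.28e-09) or IgG (log2 FC 2.86 ± 0.40, adjusted p = 0.000496). Gem was at 10.4, 13.97 and 13.6 CPM in HA T0 and 25.8, 36.00 and 28.7 in IgG T0. At T3, Gem was at 40.1, 112 and 56.8 in HA and 216, 217 and 157 in IgG. Its times did not overlap either, in HA (log2 FC 2.75 ± 0.35, adjusted p = 4.19e-05) or IgG (log2 FC 2.64 ± 0.35, adjusted p = 0.000308). Both rose in both pull-downs. Rrad was at 16.9, 13.97 and 10.1 CPM in HA T0 and 45.8, 49.5 and 66.96 in HA T3 (log2 FC 2.25 ± 0.27, adjusted p = 1.99e-06) and was not tested between T0 and T3 in IgG.

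The large scaffold Ahnak rose in HA (log2 FC 1.99 ± 0.20, adjusted p = 1.61e-07) and in IgG (log2 FC 1.22 ± 0.28, adjusted p = 0.0194), and Cabp1, a calcium sensor of these channels, rose in HA (log2 FC 2.23 ± 0.49, adjusted p = 0.00735). Rem1, a further GTPase of the Gem family, fell (log2 FC -0.96 ± 0.30, adjusted p = 0.0169). The other 2 called genes, named after their values were seen, were Camk2a, which rose, and Calm3, which fell. The call of Ahnak in IgG was lost without animal 1, 2 or 4 in IgG T0 or 4 in IgG T3 (adjusted p 0.0622 to 0.139), and in HA the call was lost for Rem1 in a fit of all 12 libraries or without animal 1 in HA T0 or 3 or 4 in HA T3 (adjusted p 0.0505 to 0.0842).

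**Figure D5:**
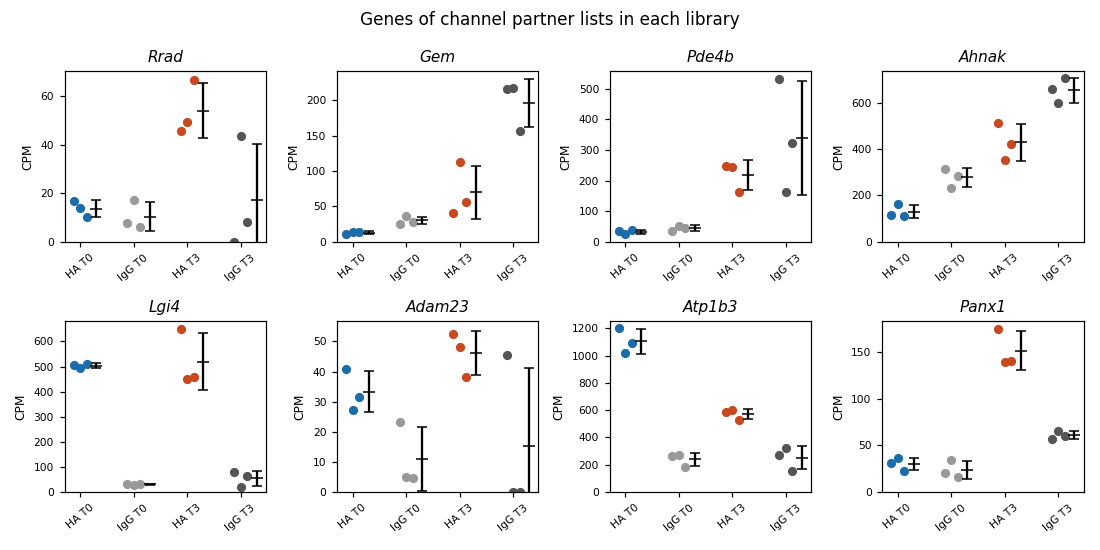
CPM of 8 genes from the partner lists in each library (dots), by group (horizontal axis), with mean ± SD over 3 libraries, each panel on its own vertical axis from 0. Rrad, Gem, Pde4b, Ahnak and Panx1 were higher in HA T3 than in HA T0 without overlap, and Lgi4 was higher in HA than in IgG at both times.

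Of 7 sodium channel partners tested between T0 and T3 in HA 1 was called, against 33.8% of all genes tested. It was the ubiquitin ligase Nedd4, which fell (log2 FC -0.62 ± 0.20, adjusted p = 0.0188). That call was lost in a fit of all 12 libraries or without animal 4 in HA T0 or 1 or 4 in HA T3 (adjusted p 0.0533 to 0.111). Of 8 tested at T0, 2 were higher in HA (background 16.0%) and 3 lower (background 14.4%). Fgf11 (log2 FC 1.27 ± 0.34, adjusted p = 0.0121) was among those higher in HA, and Fgf13 (log2 FC -2.15 ± 0.29, adjusted p = 8.84e-05), Nedd4l (log2 FC -1.996 ± 0.41, adjusted p = 0.00239) and Pkp2 (log2 FC -1.49 ± 0.35, adjusted p = 0.00505) were lower. The call of Fgf11 was lost without animal 4 in HA T0 (adjusted p = 0.0665).

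Of the sodium pump and ion clearance list 9 were higher in HA (background 16.0%) and 3 lower (background 14.4%) of 17 tested at T0 (median log2 FC 1.03), and 6 higher (background 11.8%) and 2 lower (background 10.2%) of 15 at T3. Its pump subunit Atp1b3 was at 1202, 1019 and 1095 CPM in HA T0 and 265, 269 and 187 in IgG T0. At T3, Atp1b3 was at 587, 599.8 and 531 in HA and 272, 326 and 157 in IgG. It was higher in HA at T0 (log2 FC 2.19 ± 0.21, adjusted p = 4.16e-06) and fell in HA (log2 FC -0.69 ± 0.17, adjusted p = 0.00329) without overlap. Between T0 and T3 in HA 3 rose and 3 fell of 16 tested, near the background of 33.8% called. The potassium-chloride cotransporter Slc12a4 (log2 FC 0.903 ± 0.20, adjusted p = 0.00183) and the pump regulator Fxyd5 (log2 FC 0.58 ± 0.22, adjusted p = 0.0495) were among those that rose, and the pump subunit Atp1b1 (log2 FC -0.68 ± 0.16, adjusted p = 0.00317) fell as well as Atp1b3. The calls were lost for Fxyd5 with RLE scaling, when scaled by total counts, by DESeq2, in a fit of all 12 libraries or without animal 1 or 4 in HA T0 or 4 in HA T3 (adjusted p 0.0517 to 0.339) and Atp1b1 in a fit of all 12 libraries (adjusted p = 0.168). Slc12a4 was also called higher at T3 in IgG, the 1 call of 13 tested there (background 5.46%). That call in IgG was kept in 9 of 14 alternatives.

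Among 46 other ion channel genes in the files, 11 were higher (background 16.0%) and 5 lower (background 14.4%) of 33 tested at T0. With time, 7 rose and 4 fell of 29 tested in HA (median -0.12), a share called near the 33.8% of all genes. Panx1, a large-pore channel that releases ATP, was at 31.1, 36.3 and 22.6 CPM in HA T0 and 20.6, 34.3 and 16.3 in IgG T0. At T3, Panx1 was at 175, 139 and 140.1 in HA and 56.7, 65.2 and 60.4 in IgG. It rose in HA without overlap (log2 FC 2.61 ± 0.21, adjusted p = 7.97e-09) and was higher in HA than in IgG at T3 (log2 FC 1.39 ± 0.33, adjusted p = 0.00527). Lrrc8a, the volume-regulated anion channel (log2 FC 1.23 ± 0.18, adjusted p = 2.04e-05), Itpr3, a calcium release channel of the reticulum (log2 FC 1.04 ± 0.20, adjusted p = 0.000471), and Orai1, a store-operated calcium channel (log2 FC 0.65 ± 0.18, adjusted p = 0.00833), rose. The ATP-gated channel P2rx4 (log2 FC -0.91 ± 0.18, adjusted p = 0.000646) and Ano1, a chloride channel that is also a marker of interstitial cells of Cajal (log2 FC -0.73 ± 0.17, adjusted p = 0.00301), fell. The calls were lost for Orai1 when scaled by total counts (adjusted p = 0.0917) and Ano1 in a fit of all 12 libraries (adjusted p = 0.121).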

How the data were processed

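Whole small intestinal muscularis with the myenteric plexus was homogenised per animal, pulled down with anti-HA or IgG, and sequenced as bulk MARS-seq, a 3′ method with molecular identifiers (UMIs). Per the labels, samples with similar qPCR values were pooled before amplification, and which ones shared a pool is not given in the sources used here. Per the submitters' processing notes, reads were trimmed with cutadapt and aligned with STAR 2.4.2a to mm10. The authors deposited raw UMI counts, made with HTSeq from unique reads in a window from 1000 bases before to 100 bases after each 3′ end, without normalisation. The authors normalised with DESeq2 1.26.0 for their own tests. The series table and the sample files differed in 0 values.

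Counts were tested here with edgeR 4.0.16 in R 4.3.3 (quasi-likelihood F-test, robust, TMM scaling, filterByExpr), with Benjamini-Hochberg adjustment over all genes of a comparison and a threshold of 0.05. Comparisons of 2 groups used their 6 libraries and the interaction all 12. SE was taken from the F statistic, and p-values measure the spread between 3 libraries per group. The main fits held no term for the animal, so HA and IgG libraries of 1 animal were treated as independent. CPM in the text are counts scaled to the library total. The scripts were tested on simulated data. Named were Kcna1, Kcna2 and Scn7a, all channel genes called or with a mean of at least 10 CPM in a group, and up to 6 called genes per partner list by smallest p between T0 and T3 in HA. Some of these genes are not reported by name here and are not drawn, but stay in the counts. The members and lists were chosen with earlier results of these data known. HA and IgG libraries of 1 animal share homogenate, and their deviations correlated over 6580 genes (0.32, 0.33 and 0.31 at T0 and 0.20, 0.20 and 0.14 at T3), so the animal pairs them. Alternatives were scaling by RLE or total counts, the filter dropped or set to 5 counts in 1 library, the Wald test of DESeq2 1.42.0, all 12 libraries in 1 fit, a replicate block, each library left out in turn and, added after seeing the data, the IgG T3 libraries of animals 1 and 3 left out together. The block was the animal for HA against IgG and for the interaction, and the replicate number between T0 and T3. Gene positions are from GENCODE M21 (GRCm38, the build mm10), in which the counting window of 14 channel genes overlaps an exon of another gene.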

Additional observations from a re-analysis of the deposited data

How the results depend on the processing

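Of 67 calls of channel genes 38 held in each alternative in which they were tested and 29 were lost in at least 1. None changed direction. Of 58 calls of partner genes taken by the naming rule 34 held and 24 were lost in at least 1. Without 1 library the count of channel genes called lay between 25 and 34 at T0, 10 and 17 at T3, 10 and 17 between T0 and T3 in HA, 1 and 2 in IgG, and 0 and 1 for the interaction. Between T0 and T3 in IgG 2 were called with no filter and 3 in a fit of all 12 libraries. The interaction called 1 gene by DESeq2 and 1 with the animal as a block. A replicate block over the animals called 35 channel genes at T0 (20 higher and 15 lower) and 18 at T3. At T3 the calls were 9 higher and 10 lower in a fit of all 12 libraries. Between T0 and T3 equal numbers mark different animals, whose deviations correlated at 0.17 and 0.04 in HA and 0.21 and 0.03 in IgG. A block on these numbers pairs no animal, so its results decide nothing. With that block in HA 8 rose and 8 fell, calls lost included those of Kcnf1, Kcnn2 and Kcnn4 (adjusted p 0.0563, 0.0648 and 0.0595) and Scn7a passed (1.06, adjusted p = 3.99e-05).

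Some values that were not called changed sign. Between T0 and T3 in IgG, Kcna2 was at -0.027 without the IgG T3 library of animal 1 (with single libraries left out up to 0.33) and Scn7a at -0.41 without those of animals 1 and 3. The interaction of Kcna1 (-0.15) became 0.18, 0.04, 0.49, 0.02 and 0.03 (from -1.01 upward over single libraries left out) without HA T0 animal 1, IgG T0 animal 2, IgG T3 animal 1, IgG T3 animal 3 and HA T3 animal 4, and 1.53 without IgG T3 animals 1 and 3, where that of Scn7a (-0.68) became 1.24. The causes were not tested. The shallow IgG T3 libraries set which genes could be tested there.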
